A study of Arabidopsis thaliana with 21 samples.

Results

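The peaks described here lie around the centromere of chromosome 3 of Arabidopsis thaliana. They come from chromatin immunoprecipitation with sequencing (ChIP-seq) of EYFP-tagged GLABRA2 (GL2). A peak was included when its summit, the base of highest tag pile-up, lay from 11500001 to 16000000 on chromosome 3 (TAIR10 coordinates). This position rule, which uses no measured signal, gave 1303 of the 10293 peaks listed on the nuclear chromosomes for 6 genotypes. They comprise the gl2_dSTART peaks, of which 207 lie in the central 300 kb and 168 elsewhere in the interval, with 236 peaks in gl2_dZip, 447 in gl2_Amo, 130 in gl2_E375G R392M, 79 for wild-type GL2 and 36 for the gl2-5 null mutant.

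GL2 belongs to the class IV HD-Zip family, whose members bind DNA through a homeodomain, and it is known for trichome formation and for keeping root epidermal cells in the non-hair state. Its leucine zipper lets proteins of the family pair, and its START domain belongs to a family of lipid-binding folds. A centromere of Arabidopsis is built on long arrays of a short satellite repeat, flanked by heterochromatin that is rich in transposons and their remnants and poor in active genes. Short tags from such repeats can match many places in the genome, and how those tags were assigned is not given in the sources used here.

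Seedlings of the Columbia ecotype were harvested at 10 days. Each of the 5 fusion lines carried EYFP joined to gl2_dSTART, gl2_dZip, gl2_Amo, gl2_E375G R392M or wild-type GL2 as a transgene in the homozygous gl2-5 background. The gl2-5 plants without a transgene show what the anti-GFP antibody (ab290) precipitates in the absence of a fusion. Per the labels, the wild-type fusion restored the phenotype and the altered forms did not. The labels do not explain Amo, and they give neither the promoter of the transgenes nor the number of independent lines. There were 3 ChIP libraries each in gl2_Amo, gl2_E375G R392M and GL2 and 2 each in gl2_dSTART, gl2_dZip and gl2-5, with 1 input library per genotype. The ChIP libraries of a genotype were merged before peaks were called, so every value below is a single measurement. No replicate error exists for it, and no difference between genotypes could be tested. The intervals in parentheses are 95% Wilson intervals. They reflect counting error alone, as if each peak were independent of its neighbours.

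The depth behind the lists was unequal. With at most 1 tag per position kept, 297665 ChIP tags remained in gl2_dSTART, 1248287 in gl2_dZip, 538666 in gl2_Amo, 372864 in gl2_E375G R392M, 352707 in GL2 and 227071 in gl2-5. The ratio of kept ChIP tags to kept input tags ran from 0.179 in gl2-5 to 1.29 in gl2_dZip. Counts of peaks are therefore given beside values that depend less on depth where the files allow it.

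The annotation of the interval had the make-up of a centromere and its flanks. It held 754 of the 1080 pseudogenes of chromosome 3 (69.8%) in a RefSeq gene table, but 259 of its 5458 protein-coding genes (4.75%). Pseudogene spans covered 39.3% of the bases and protein-coding gene spans 10.5%. In the middle, from 13600001 to 13900000, there was no protein-coding gene, and pseudogenes covered 23.9% of the bases.

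Each of the 5 fusions had a larger share of its peaks in the interval than gl2-5 had. The share of all nuclear peaks was 14.8% in gl2_dSTART (13.4 to 16.2), 18.7% in gl2_dZip (16.7 to 21.0), 12.7% in gl2_Amo (11.6 to 13.8), 10.2% in gl2_E375G R392M (8.62 to 11.9), 7.89% in GL2 (6.38 to 9.73) and 5.29% in gl2-5 (3.84 to 7.23). The intervals of GL2 and gl2-5 overlapped. With lists of equal length, the 681 peaks of highest score each (the number in the gl2-5 list), gl2_E375G R392M came to 6.75% (5.10 to 8.89), GL2 to 7.34% (5.61 to 9.55) and gl2-5 stayed at 5.29%, so these 3 lists were not separated beyond counting error. At the same length gl2_dSTART had 15.6%, gl2_dZip 22.8% and gl2_Amo 25.6%, and their intervals lay above those of the other 3 lists.

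Within chromosome 3, the interval took 82.5% of the gl2_dZip peaks (77.7 to 86.5), 63.9% of the gl2_dSTART peaks (59.9 to 67.7), 59.1% in gl2_Amo (55.6 to 62.6), 47.1% in gl2_E375G R392M (41.3 to 53.0), 41.6% in GL2 (34.8 to 48.7) and 26.7% in gl2-5 (19.9 to 34.7). The borders did not cut through a dense stretch. In the 500 kb inside the left border gl2_Amo had 10 peaks, and in the 500 kb outside it 16, whereas the other lists had between 1 and 10 inside and between 1 and 7 outside. In the 500 kb inside the right border the lists had between 6 and 17 peaks, and in the 500 kb outside it between 2 and 4. The last peak before the left border was in the same place in all 6 lists, with summits from 11486218 to 11486233. It held 24 tags in gl2_dSTART, 24 in gl2_dZip, 61 in gl2_Amo, 22 in gl2_E375G R392M, 30 in GL2 and 13 in gl2-5. Just inside that border, the first summits lay between 11517880 in gl2_Amo and 11895407 in gl2-5, with 5 to 27 tags.

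**Figure D1:**
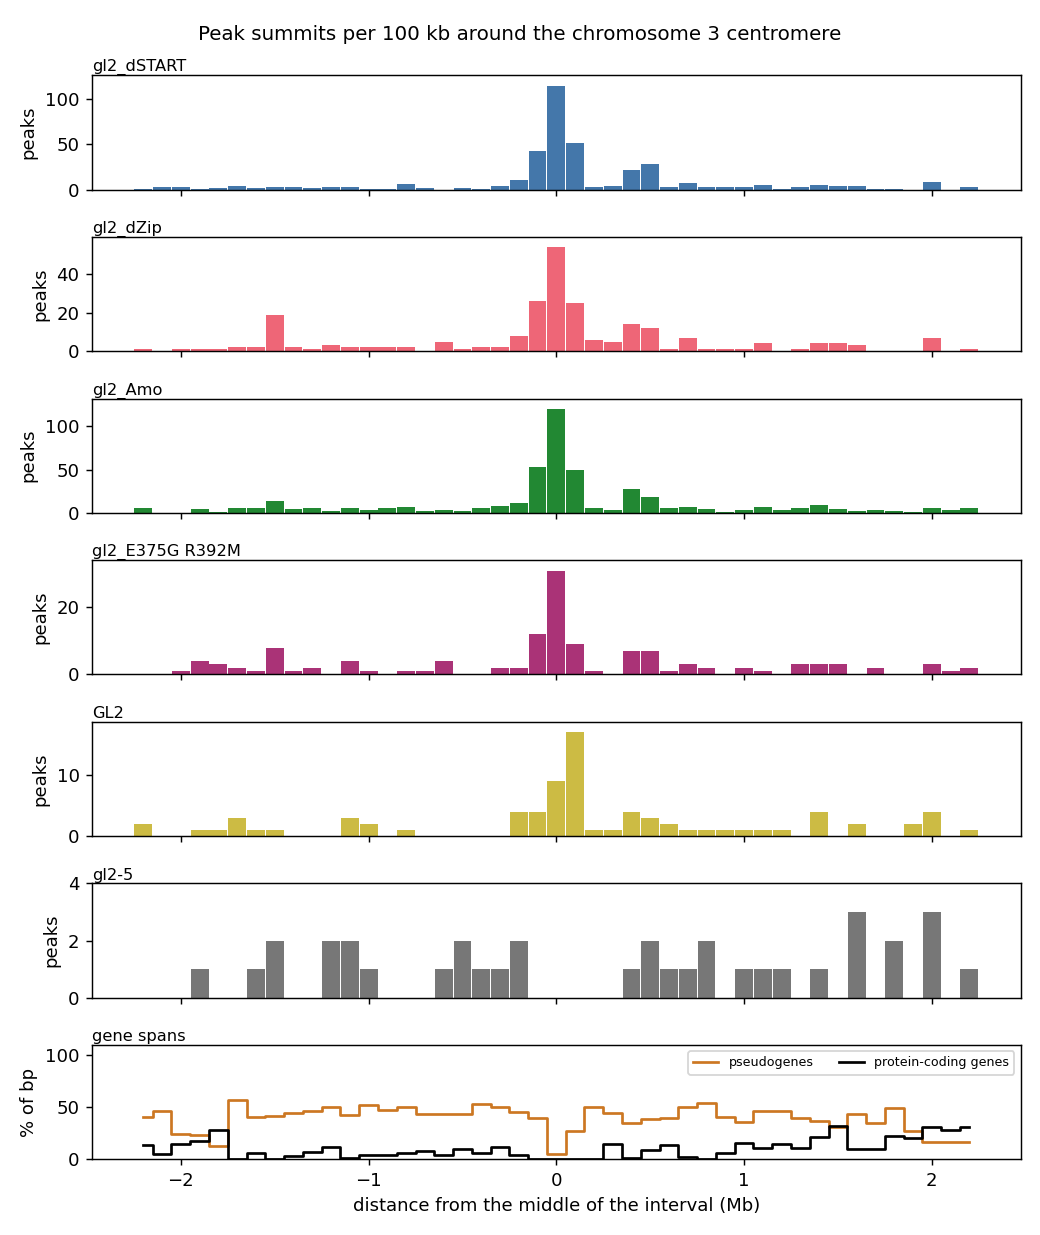
Number of peak summits in each of 45 bins of 100 kb, by genotype, against the distance from the middle of the interval in Mb, with the percent of bases in pseudogene and protein-coding gene spans below. The vertical scales differ between panels. The 5 fusions peak at the middle, where the gl2-5 panel is empty from 13600001 to 13900000. It holds 2 peaks in the bin just left of this.

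By count, peaks of the fusions were concentrated in the middle of the interval, and those of gl2-5 were not. The fullest bin of 100 kb was that from 13700001 to 13800000 in gl2_dSTART with 114 peaks, gl2_dZip with 54, gl2_Amo with 120 and gl2_E375G R392M with 31. For GL2 it was the next bin, from 13800001 to 13900000, with 17 peaks, and the bin from 13700001 held 9. The fullest gl2-5 bins had 3 peaks each, from 15300001 and from 15700001. With bins shifted by 50 kb, the first of the fullest started at 14250001, also with 3 peaks. A bin in the middle of the ranking held 3 peaks in gl2_dSTART, 2 in gl2_dZip, 5 in gl2_Amo, 2 in gl2_E375G R392M, 1 in GL2 and 1 in gl2-5.

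The central 300 kb, from 13600001 to 13900000, was marked off after the bin counts had been seen. It held 207 of the gl2_dSTART peaks (55.2%, 50.1 to 60.2), 105 of the 236 gl2_dZip peaks (44.5%, 38.3 to 50.9), 223 of the 447 gl2_Amo peaks (49.9%, 45.3 to 54.5), 52 of the 130 gl2_E375G R392M peaks (40.0%, 32.0 to 48.6), 30 of the 79 GL2 peaks (38.0%, 28.1 to 49.0) and 0 of the 36 gl2-5 peaks (0 to 9.64%). With each list reduced to 681 peaks, a choice made after seeing the data, the counts were 62 in gl2_dSTART, 76 in gl2_dZip, 125 in gl2_Amo, 16 in gl2_E375G R392M, 15 in GL2 and 0 in gl2-5. At an FDR of 5% or less they were 207 in gl2_dSTART, 0 in gl2_dZip, 223 in gl2_Amo, 26 in gl2_E375G R392M, 10 in GL2 and 0 in gl2-5. The FDR is a percent that the caller took from calls with ChIP and input exchanged. The 30 GL2 peaks there held between 10 and 196 tags. The smallest gl2-5 peak anywhere held 5, but the limit of calling moves with the local input, so this sets no limit for the central stretch. The 2 gl2-5 peaks with the most tags in the interval lay just left of that stretch. They ended at 13587797 and 13592606 and held 90.0% of the tags in the gl2-5 peaks of the interval.

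Coverage of the central stretch differed more between lists than the counts. Peaks covered 17.5% of its bases in gl2_dSTART, 30.4% in gl2_dZip, 42.1% in gl2_Amo, 6.88% in gl2_E375G R392M and 2.56% in GL2. They were lower in fold enrichment than peaks outside the interval, with a median of 13.5 in gl2_dSTART, 8.48 in gl2_dZip, 11.6 in gl2_Amo, 7.28 in gl2_E375G R392M and 7.48 in GL2. Outside the whole interval the medians were 27.8 in gl2_dSTART, 14.4 in gl2_dZip, 17.3 in gl2_Amo, 23.9 in gl2_E375G R392M and 23.8 in GL2. Fold enrichment, FDR and score are the authors' deposited values for each peak, the fold being tags over a local expectation set by the input.

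A second, smaller concentration lay from 14100001 to 14300000. It had 50 peaks in gl2_dSTART, 26 in gl2_dZip, 46 in gl2_Amo, 14 in gl2_E375G R392M, 7 in GL2 and 3 in gl2-5. The 200 kb between it and the central stretch were sparse in each list, with 7 peaks in gl2_dSTART, 11 in gl2_dZip, 8 in gl2_Amo, 1 in gl2_E375G R392M, 2 in GL2 and 0 in gl2-5. Both stretches of 200 kb were also chosen after seeing the counts.

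A concentration outside the middle was seen in some altered forms. The bin from 12200001 to 12300000 had 19 peaks in gl2_dZip, 14 in gl2_Amo and 8 in gl2_E375G R392M, but 3 in gl2_dSTART, 1 in GL2 and 2 in gl2-5. This bin, too, was chosen after seeing the counts. An FDR of 5% or less was reached there by 0 gl2_dZip, 14 gl2_Amo and 2 gl2_E375G R392M peaks. Of the 19 gl2_dZip peaks, 9 had the summit in a pseudogene and 8 overlapped a gl2_Amo peak. Both were near the base shares. Pseudogene spans covered 41.7% of the bin, and 40.2% of all gl2_dZip nuclear peaks overlapped a gl2_Amo peak. The single GL2 peak belonged to a site that all 6 lists share.

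Over the 45 bins, the peak counts of the altered forms varied together, with Pearson's r between 0.94 and 0.99 for the 6 pairs of altered forms. With GL2, r was 0.72 in gl2_dSTART, 0.69 in gl2_dZip, 0.69 in gl2_Amo and 0.59 in gl2_E375G R392M, and with gl2-5 it lay between -0.15 and -0.02 for all 5 fusions. Spearman's rho, which the few full bins govern less, lay between 0.48 and 0.72 among the altered forms and between 0.42 and 0.56 with GL2, below the r of the same pairs. With gl2-5 the sign of the coefficient turned, and rho lay between 0.07 and 0.21 for the 5 fusions. These values describe 45 neighbouring bins that share one annotation and one set of repeats, and carry no test.

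**Figure D2:**
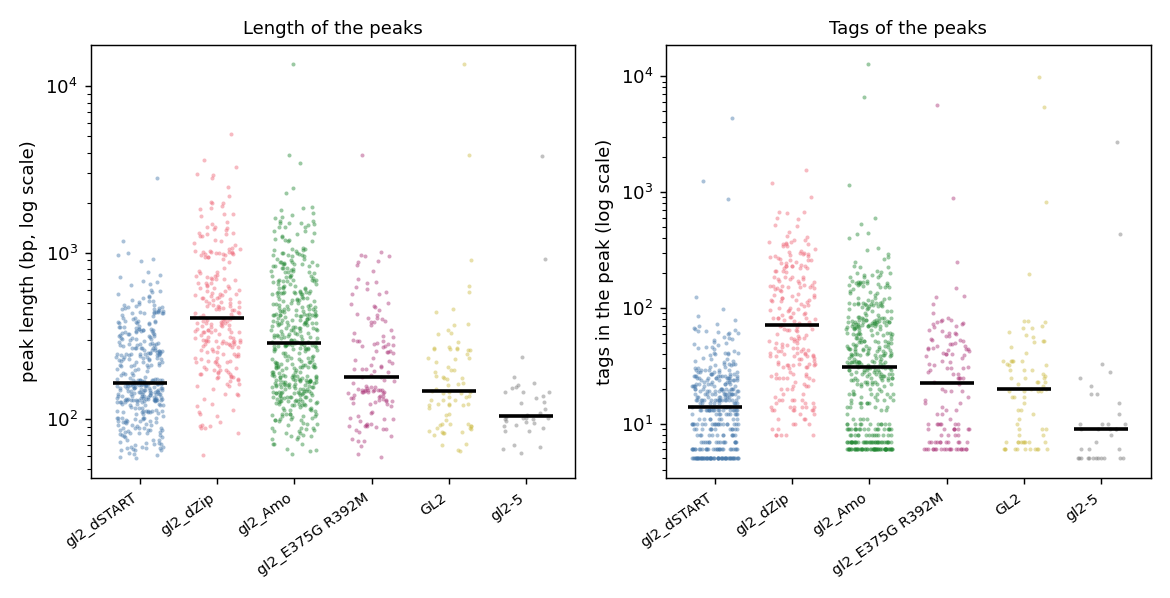
Length in bp (left) and tag count (right) of each peak in the interval by genotype, on log scales, with the median as a bar. The gl2_dZip peaks are the longest and fullest at the median, with 405 bp and 71 tags, and the gl2-5 peaks the shortest, with 104 bp and 9 tags.

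Peaks in the interval were longer than those of the same list elsewhere. The median length was 165 bp in gl2_dSTART, against 124 bp outside the interval, 405 bp in gl2_dZip against 231, 285 bp in gl2_Amo against 148, 179 bp in gl2_E375G R392M against 114, 148 bp in GL2 against 117 and 104 bp in gl2-5 against 99. Tags per peak, which are whole tags not scaled to depth, had a median of 14 in gl2_dSTART, against 6 outside, 71 in gl2_dZip against 24, 31 in gl2_Amo against 8, 22.5 in gl2_E375G R392M against 9, 20 in GL2 against 10 and 9 in gl2-5 against 6. The medians in the interval were higher than those outside in each of the 6 lists for both measures. For the fusions, both medians were higher in the central 300 kb than toward the borders. Central median tags were 16 in gl2_dSTART, 152 in gl2_dZip, 55 in gl2_Amo, 45 in gl2_E375G R392M and 34 in GL2. Right of the second concentration they were 5, 23, 9, 7 and 9 in this order, and lengths 125, 225, 147, 124 and 117 bp. Left of the central stretch they were 6, 36, 8, 9 and 13, and lengths 116, 296, 159, 144 and 136 bp. Most flank values were close to those outside.

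Peaks over 1 kb numbered 44 of 236 in gl2_dZip (8.74% of all its nuclear peaks were this long), 40 of 447 in gl2_Amo (2.58% of all), 2 in gl2_dSTART (0.985% of all), 2 in gl2_E375G R392M (1.88% of all), 2 in GL2 (2.40% of all) and 1 in gl2-5 (1.62% of all). In all, peaks covered 88.7 kb of the interval in gl2_dSTART, 151 kb in gl2_dZip, 210 kb in gl2_Amo, 38.7 kb in gl2_E375G R392M, 32.4 kb in GL2 and 8.68 kb in gl2-5.

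The lists also differed in how the caller rated these peaks. An FDR of 5% or less was reached by all gl2_dSTART peaks (against 100% of its nuclear peaks), 0 of 236 gl2_dZip peaks (against 0.159%) and all 447 gl2_Amo peaks (against 99.6%). It was also reached by 63 of 130 gl2_E375G R392M peaks (against 68.0%), 31 of 79 GL2 peaks (against 42.8%) and 1 of 36 gl2-5 peaks (against 2.79%). The percents are over all nuclear peaks of each list. For gl2_dZip, 171 of the 236 peaks stood at an FDR of 100%, so calls of equal score were at least as frequent with ChIP and input exchanged. This limits every gl2_dZip value given here.

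A few wide peaks carried many of the tags. At the left edge of the middle, between 13586825 and 13592660, lay a pair of neighbouring regions in 5 of the 6 lists. They held 6430 tags in gl2_dSTART, 7770 in gl2_Amo, 6555 in gl2_E375G R392M, 6217 in GL2 and 3148 in gl2-5, while gl2_dZip had no peak there. No gene or pseudogene is annotated within them, and the nearest protein-coding gene, AT3G32980, was at least 57586 bp from any of their summits. The null mutant without a fusion had this pair as well, and it made up 90.0% of the tags in its peaks of the interval. In the fusions it made up 48.8% in gl2_dSTART, 17.3% in gl2_Amo, 61.2% in gl2_E375G R392M and 34.2% in GL2. The pair was dense, with 1.37 tags per bp in gl2_dSTART, 1.60 in gl2_Amo, 1.37 in gl2_E375G R392M, 1.30 in GL2 and 0.664 in gl2-5, and because 1 tag per position was kept, tags per bp have an upper limit.

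A second wide region covered rRNA genes and was listed in gl2_Amo and GL2. It reached from 14191647 to 14205215 in gl2_Amo, with 12666 tags and fold 5.29, and from 14191651 to 14205210 in GL2, with 9923 tags and fold 3.70. In the gene table this stretch holds 10 genes, among them AT3G41768 and AT3G41979, which encode ribosomal RNA, the microRNA gene MIR5642a and the protein-coding gene AT3G41762. No peak was listed there in gl2_dSTART, gl2_dZip, gl2_E375G R392M or gl2-5. The single GL2 peak held 54.5% of all GL2 tags in the interval, and its FDR was 5.34%. Without it, the interval's share of the tags in GL2 peaks was 9.02%, against 17.9% with it. For gl2_Amo the peak made up 28.2% of the tags.

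**Figure D3:**
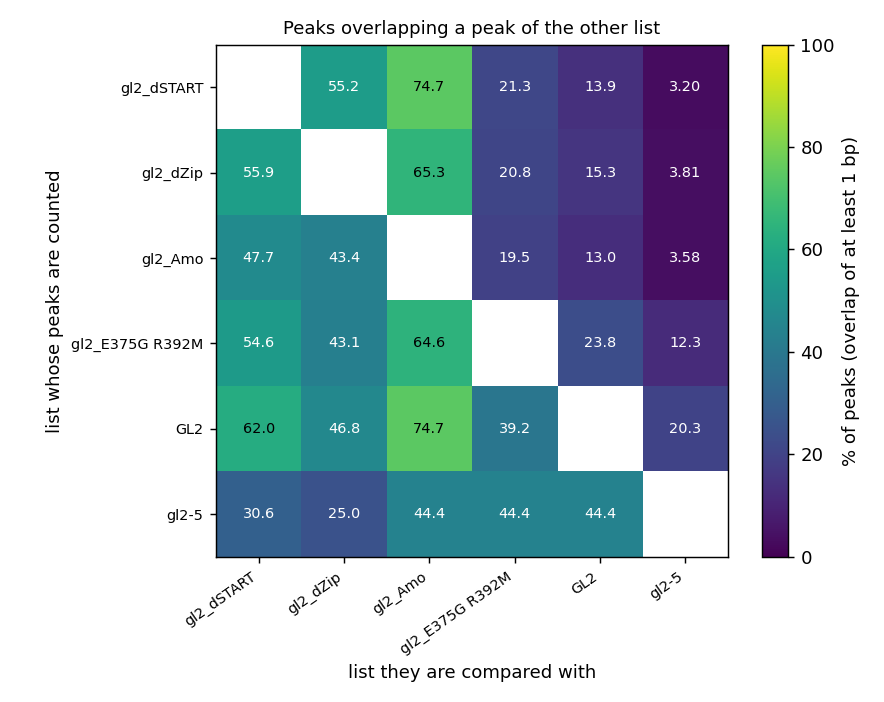
Percent of the peaks of each list (rows) in the interval that overlap a peak of another list (columns) by at least 1 bp. The gl2-5 column is low, at 3.20% to 20.3% for the fusions, and the gl2_Amo column is high, at 44.4% to 74.7%.

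Few fusion peaks of the interval coincided with a gl2-5 peak. By an overlap of at least 1 bp, 12 gl2_dSTART peaks did so (3.20%, 1.84 to 5.51, against 8.70% of all its nuclear peaks), 9 of 236 gl2_dZip peaks (3.81%, 2.02 to 7.09, against 7.47%), 16 of 447 gl2_Amo peaks (3.58%, 2.22 to 5.73, against 8.55%), 16 of 130 gl2_E375G R392M peaks (12.3%, 7.72 to 19.1, against 22.7%) and 16 of 79 GL2 peaks (20.3%, 12.9 to 30.4, against 29.5%). None of these overlaps lay in the central 300 kb, where gl2-5 had no peak. Outside it the shares were 7.14% in gl2_dSTART, 6.87% in gl2_dZip, 7.14% in gl2_Amo, 20.5% in gl2_E375G R392M and 32.7% in GL2. Counted over the null mutant, 16 of its 36 peaks were shared with gl2_Amo (44.4%, against 44.3% of all gl2-5 nuclear peaks), 16 with gl2_E375G R392M (44.4%, against 42.9%), 16 with GL2 (44.4%, against 43.2%), 11 with gl2_dSTART (30.6%, against 32.0%) and 9 with gl2_dZip (25.0%, against 13.7%). The 17 of the 36 gl2-5 peaks found in no fusion list had a median of 6 tags and at most 28. Over all nuclear chromosomes, 295 regions were of gl2-5 alone, and its list held 681 peaks.

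The altered forms shared many of their peaks with each other, and most of the GL2 peaks recurred in gl2_dSTART and in gl2_Amo. Of the gl2_dSTART peaks, 280 overlapped a gl2_Amo peak (74.7%, 70.0 to 78.8, against 41.0% of all its nuclear peaks), and of the 447 gl2_Amo peaks, 213 overlapped a gl2_dSTART peak (47.7%, 43.1 to 52.3, against 24.6%). Of the 236 gl2_dZip peaks, 154 overlapped a gl2_Amo peak (65.3%, 59.0 to 71.0, against 40.2%), and 194 gl2_Amo peaks overlapped a gl2_dZip peak (43.4%, against 17.2%). An overlap joined 132 gl2_dZip peaks to gl2_dSTART (55.9%, 49.6 to 62.1, against 32.1%) and 207 gl2_dSTART peaks to gl2_dZip (55.2%, against 22.0%). For gl2_E375G R392M, 84 of 130 peaks overlapped a gl2_Amo peak (64.6%, 56.1 to 72.3, against 45.9%), while 87 gl2_Amo peaks overlapped one of gl2_E375G R392M (19.5%, against 16.2%). Of the same 130 peaks, 71 overlapped one of gl2_dSTART (54.6%, 46.0 to 62.9, against 37.7%) and 56 one of gl2_dZip (43.1%, 34.9 to 51.7, against 18.8%). In the other direction, 80 gl2_dSTART peaks (21.3%, against 19.9%) and 49 gl2_dZip peaks (20.8%, against 17.9%) overlapped one of gl2_E375G R392M. These 2 shares were close to those over all nuclear peaks.

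An overlap with GL2 was found for 52 gl2_dSTART peaks (13.9%, against 16.5% of all its nuclear peaks), 36 gl2_dZip peaks (15.3%, against 14.1%), 58 gl2_Amo peaks (13.0%, against 14.2%) and 31 gl2_E375G R392M peaks (23.8%, against 34.5%). From the side of GL2, 49 of 79 peaks were shared with gl2_dSTART (62.0%, 51.0 to 71.9, against 41.5% of all GL2 nuclear peaks), 37 with gl2_dZip (46.8%, 36.2 to 57.7, against 18.3%), 59 with gl2_Amo (74.7%, 64.1 to 83.0, against 51.9%) and 31 with gl2_E375G R392M (39.2%, 29.2 to 50.3, against 44.9%). With an overlap of at least 50% of both peaks, the shares of GL2 peaks were 40.5% with gl2_Amo and 22.8% with gl2_dZip, whose peaks are longer.

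Compared with the rest of the interval, the central 300 kb had a larger share of GL2 peaks overlapping each altered form. For gl2_E375G R392M the difference was small (43.3% against 36.7%). All 30 GL2 peaks there overlapped a gl2_Amo peak, 28 overlapped one of gl2_dSTART, 20 one of gl2_dZip and 13 one of gl2_E375G R392M. Outside it, 29 of the 49 GL2 peaks overlapped a gl2_Amo peak, 21 one of gl2_dSTART, 17 one of gl2_dZip and 18 one of gl2_E375G R392M. As gl2_Amo peaks covered 42.1% of the central bases, overlap alone is a loose measure, and distances between summits were taken as well. They are given here for the central stretch alone. The nearest gl2_dSTART summit was within 10 bp for 18 of the 30 GL2 summits and within 50 bp for 26, at a median of 6.50 bp. The nearest gl2_Amo summit was within 10 bp for 18 and within 50 bp for 25, at a median of 5.50 bp. For gl2_dZip 13 were within 50 bp (median 277 bp), and in gl2_E375G R392M 11 were (median 510 bp).

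**Figure D4:**
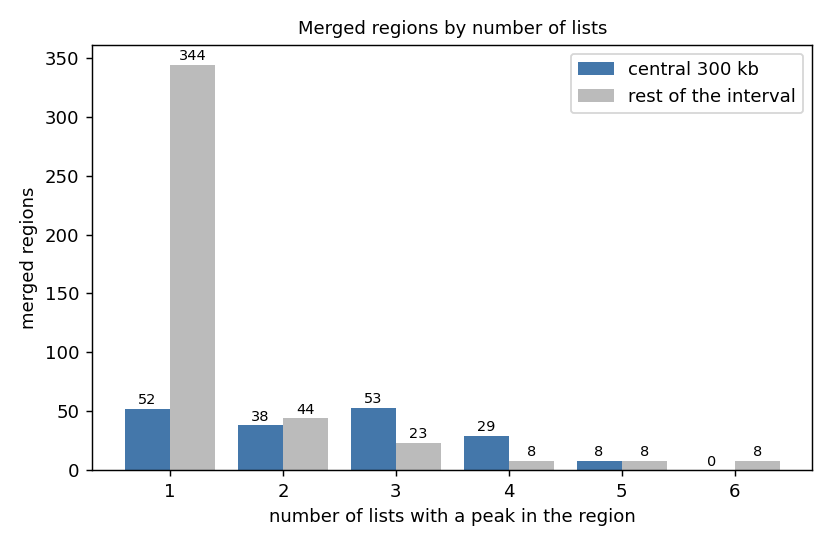
Number of merged regions by the number of lists with a peak in them, in the central 300 kb (blue) and in the rest of the interval (grey). Of the regions in 3 lists, 53 are central and 23 are not, whereas all 8 regions in 6 lists lie outside the central stretch.

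Peaks of the 6 lists that overlapped were joined, which gave 615 regions in the interval, 180 of them in the central 300 kb. Of these, 396 were in 1 list (64.4%, against 79.7% of all merged nuclear regions), 82 in 2 lists, 76 in 3, 37 in 4, 16 in 5 and 8 in all 6 (1.30%, against 1.13% of all). Among the 137 regions in 3 or more lists, 106 had peaks of gl2_dSTART, gl2_dZip and gl2_Amo together, 48 had a GL2 peak and 15 a gl2-5 peak. The most frequent combination was that of gl2_dSTART, gl2_dZip and gl2_Amo without any other list, in 57 regions, 41 of them central. In the central stretch, 155 of the 180 regions had neither a GL2 nor a gl2-5 peak. The share was similar in the whole interval, with 522 of 615. Of its bases, 14.6% were within peaks of 3 or more lists, 0.535% within peaks of all 5 fusions and 51.8% within none.

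The 8 sites found in all 6 lists were narrow, from 141 to 329 bp, and stood apart from the dense stretch. The one with the highest GL2 score lay from 12670225 to 12670553 in the overlapping transcribed pseudogenes AT3G31005 and AT3G31161. It held 20 tags in gl2_dSTART (fold 13.7), 45 in gl2_dZip (22.9), 73 in gl2_Amo (147), 47 in gl2_E375G R392M (41.5), 41 in GL2 (120) and 18 in gl2-5 (64.1), and its summits were spread over 63 bp. In fold, gl2-5 lay between gl2_E375G R392M and GL2. The next site, from 12168110 to 12168263, reached into the protein-coding gene AT3G30580. Its fold was 43.5 in gl2_dSTART, 29.2 in gl2_dZip, 35.7 in gl2_Amo, 19.4 in gl2_E375G R392M, 135 in GL2 and 20.4 in gl2-5, with all summits within 13 bp.

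Another site, from 11895332 to 11895475, had no gene within it. Its tags numbered 14 in gl2_dSTART (fold 90.3), 27 in gl2_dZip (13.5), 34 in gl2_Amo (120), 28 in gl2_E375G R392M (30.5), 20 in GL2 (142) and 9 in gl2-5 (32.6), with summits within 14 bp. The site from 12779287 to 12779507 had a fold of 28.0 in gl2_dSTART, 19.8 in gl2_dZip, 29.6 in gl2_Amo, 29.7 in gl2_E375G R392M, 113 in GL2 and 51.0 in gl2-5. At 3 of these first 4 sites GL2 had the highest fold of the 6 lists, and at the first gl2_Amo did. The sites were ordered by GL2 score, which by itself favours a high GL2 fold at those named first.

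The other 4 sites were from 14254366 to 14254506, 97 bp from AT3G42060, from 15733061 to 15733209, from 12242889 to 12243089 and from 14305201 to 14305354. Their GL2 peaks held 17, 17, 19 and 9 tags, and their gl2-5 peaks 5, 5, 10 and 9. GL2 had the highest fold at the sites from 14254366 (113) and from 15733061 (82.5). At the site from 12242889 gl2_dSTART was higher, with 49.1 against 45.1 in GL2. At the last of them, fold was 51.8 in gl2_dSTART, 14.2 in gl2_dZip, 121 in gl2_Amo, 14.1 in gl2_E375G R392M, 63.8 in GL2 and 15.4 in gl2-5.

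In all 5 fusion lists but not in gl2-5 there were 12 regions (36 in the nuclear genome, 0.527% of all merged regions), and 8 of them were central. Of the 10 with the highest GL2 score, 8 spanned more than 1 kb and held no annotated gene or pseudogene. The highest lay from 13838026 to 13841013 and joined 9 peaks. Their nearest summits fell within 9 bp, from 13838735 to 13838744, with 97 tags in gl2_dSTART, 356 in gl2_dZip, 318 in gl2_Amo, 57 in gl2_E375G R392M and 67 in GL2. Fold at these peaks was 45.8 in gl2_dSTART, 11.8 in gl2_dZip, 17.7 in gl2_Amo, 7.94 in gl2_E375G R392M and 13.6 in GL2. Summits were not this close in all of the 10 regions. In those from 13655205, 13857029, 13713649 and 14178130, the summits nearest to that of GL2 spread over 345, 651, 215 and 675 bp. In the others they lay within 12 bp.

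Another of them, from 13813863 to 13816434, placed its nearest summits within 2 bp, at 13815535 in gl2_dSTART, gl2_Amo and GL2. The peaks there held 63 tags in gl2_dSTART, 517 in gl2_dZip, 432 in gl2_Amo, 64 in gl2_E375G R392M and 77 in GL2. In the second concentration, the region from 14179426 to 14183518 joined 16 peaks, 5 of gl2_dSTART, 2 of gl2_dZip, 4 of gl2_Amo, 3 of gl2_E375G R392M and 2 of GL2. Their summits nearest to that of GL2 lay within 7 bp. Of the 2 gl2_dZip calls, the longer one spanned 3295 bp and held 903 tags.

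The other 2 of these 10 were narrow. The one from 14762129 to 14762368 lay 1500 bp from CHR38 (AT3G42670), which encodes a chromatin remodelling protein of RNA-directed DNA methylation. It held 5 tags in gl2_dSTART, 14 in gl2_dZip, 23 in gl2_Amo, 12 in gl2_E375G R392M and 9 in GL2, with summits within 9 bp. The other reached from 14299277 to 14299460 and into AT3G42075, with 5 tags in gl2_dSTART, 10 in gl2_dZip, 8 in gl2_Amo, 14 in gl2_E375G R392M and 6 in GL2. Both rest on few tags.

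Regions of a single list were mostly small. The 18 regions of GL2 alone held between 6 and 8 tags, and none was central. In 9 of them a pseudogene was annotated and in 4 a protein-coding gene. Regions of 1 list numbered 171 in gl2_Amo, 82 in gl2_dSTART, 72 in gl2_dZip, 36 in gl2_E375G R392M and 17 in gl2-5. Over all nuclear chromosomes such regions numbered 2234 in gl2_Amo, 1317 in gl2_dSTART and 650 in gl2_dZip. There were 558 in gl2_E375G R392M, 389 in GL2 and 295 in gl2-5. The lists differ in length, so these counts do not compare the genotypes.

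Some peaks with high scores in the altered forms overlapped no GL2 peak. The region at 14217507 to 14219509 in gl2_dZip, with 589 tags and fold 11.3, and at 14217548 to 14219400 in gl2_Amo, with 327 tags and fold 17.0, were among the 5 highest scores of these lists in the interval. The highest-scoring gl2_dZip peak, from 14179426 to 14182720, and another of its 5, from 13693092 to 13696725 with 667 tags, did overlap a GL2 peak. For gl2_dSTART, the peak from 13778569 to 13779739 with 85 tags had no GL2 counterpart, and the one from 13838394 to 13839163 with 97 tags had one. All 5 highest-scoring GL2 peaks were also in gl2-5.

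**Figure D5:**
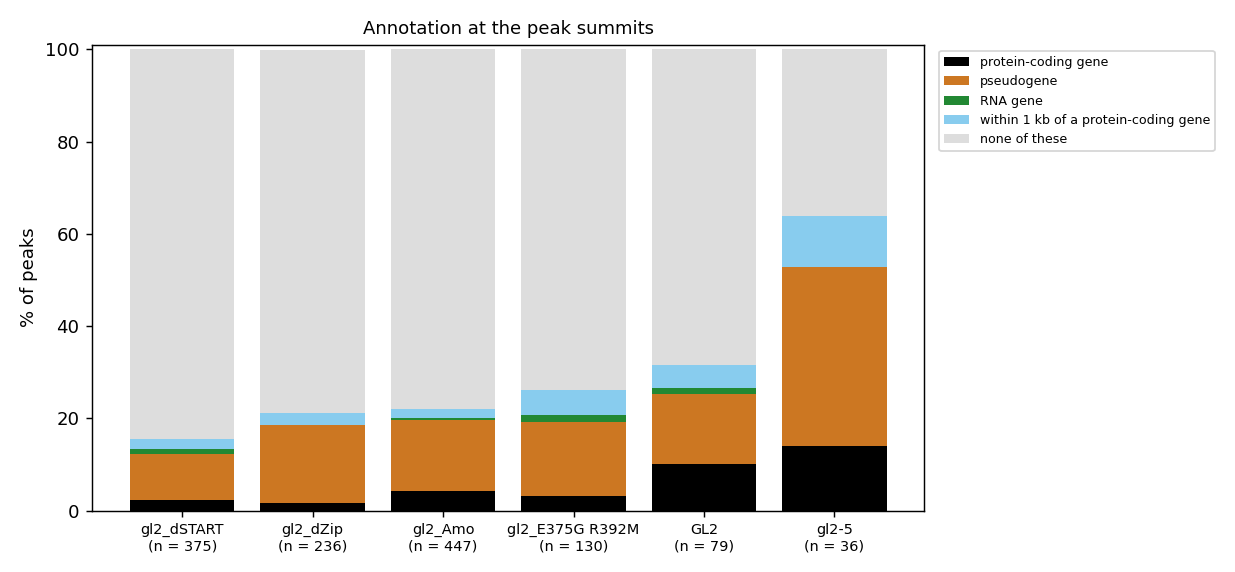
Percent of the peaks of each list in the interval with the summit in a protein-coding gene, a pseudogene, an RNA gene, within 1 kb of a protein-coding gene, or in none of these, in this order of precedence. The last class is 84.5% in gl2_dSTART and 36.1% in gl2-5.

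Most fusion peaks of the interval had no annotated gene at their summit. Neither a gene, a pseudogene nor the 1 kb next to a protein-coding gene was hit by 317 gl2_dSTART peaks (84.5%, against 49.2% of all its nuclear peaks), 186 gl2_dZip peaks (78.8%, against 52.5%), 348 gl2_Amo peaks (77.9%, against 47.5%), 96 gl2_E375G R392M peaks (73.8%, against 39.8%), 54 GL2 peaks (68.4%, against 41.0%) and 13 gl2-5 peaks (36.1%, against 22.6%). In the central 300 kb this was so for 99.0% of the gl2_dSTART peaks, 98.1% of those of gl2_dZip, 98.7% of those of gl2_Amo, 98.1% of those of gl2_E375G R392M and 96.7% of those of GL2.

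Pseudogenes held 9.87% of the gl2_dSTART summits (7.24 to 13.3, against 9.49% of all its nuclear peaks), 16.9% of those of gl2_dZip (12.7 to 22.3, against 23.7%), 15.4% of those of gl2_Amo (12.4 to 19.1, against 11.9%), 16.2% of those of gl2_E375G R392M (10.8 to 23.4, against 8.91%), 15.2% of those of GL2 (8.91 to 24.7, against 6.79%) and 38.9% of those of gl2-5 (24.8 to 55.1, against 10.9%). Pseudogene spans covered 39.3% of the interval, so the fusions had a smaller share in them than the spans have of the bases, and the gl2-5 interval included that value. Outside the central stretch, where pseudogenes are denser, the shares were 20.8% in gl2_dSTART, 29.0% in gl2_dZip, 29.5% in gl2_Amo, 25.6% in gl2_E375G R392M, 22.4% in GL2 and 38.9% in gl2-5.

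A summit of any list fell in 139 of the 754 pseudogenes, of which 115 were hit in 1 list and 11 in 3 or more. Besides AT3G31005 and AT3G31161, which all 6 lists share, AT3G30695 had 1 gl2_dSTART, 4 gl2_dZip, 2 gl2_Amo and 1 gl2_E375G R392M summit. AT3G43304 had 1 gl2_dSTART, 3 gl2_dZip, 2 gl2_Amo and 2 gl2_E375G R392M summits, and AT3G30668 had 4 in gl2_dZip and 1 each in gl2_Amo and gl2_E375G R392M. None of these 3 was hit by GL2 or gl2-5. AT3G33072, inside the central stretch, was hit once each by gl2_dSTART with 125 tags, gl2_Amo with 402, gl2_E375G R392M with 251 and GL2 with 196. Its fold was low, between 3.47 in gl2_dSTART and 4.95 in gl2_Amo.

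The 5 other pseudogenes hit in 3 lists were AT3G30416 and AT3G43390, each with 1 summit of gl2_dSTART, gl2_dZip and gl2_Amo, AT3G30450, with gl2_dSTART, gl2_Amo and gl2_E375G R392M, AT3G32890, with gl2_dZip, gl2_Amo and gl2_E375G R392M, and AT3G43152, with gl2_Amo, gl2_E375G R392M and GL2. A GL2 summit was thus found in 1 of these 5.

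Protein-coding genes held a smaller share of the summits than pseudogenes did in each list. They held 2.40% of the gl2_dSTART summits (against 29.1% of all its nuclear peaks), 1.69% of those of gl2_dZip (against 14.6%), 4.25% of those of gl2_Amo (against 28.1%), 3.08% of those of gl2_E375G R392M (against 33.2%), 10.1% of those of GL2 (against 33.4%) and 13.9% of those of gl2-5 (against 47.7%). Protein-coding gene spans covered 10.5% of the interval. The altered forms had a smaller share in them than that. The counting intervals of GL2 (5.22 to 18.7) and gl2-5 (6.08 to 28.7) included that value. A summit fell in 28 of the 259 protein-coding genes, in 23 of them in 1 list. MEE38 (AT3G43160, named for maternal effect embryo arrest) was the one gene hit in all 6 lists, with 2 summits in gl2_dSTART, 2 in gl2_dZip, 5 in gl2_Amo, 1 in gl2_E375G R392M, 3 in GL2 and 1 in gl2-5. The highest fold in MEE38 was 16.2 in gl2_dSTART, 16.1 in gl2_dZip, 65.7 in gl2_Amo, 15.1 in gl2_E375G R392M, 13.3 in GL2 and 22.7 in gl2-5, and the gl2-5 peak rested on 6 tags.

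The 1 kb next to a protein-coding gene held 2.13% of the gl2_dSTART summits (against 10.6%), 2.54% of those of gl2_dZip (against 7.63%), 2.01% of those of gl2_Amo (against 11.8%), 5.38% of those of gl2_E375G R392M (against 17.5%), 5.06% of those of GL2 (against 18.1%) and 11.1% of those of gl2-5 (against 17.5%).

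AT3G43850 was hit once in each list except gl2_dZip, within a few bases around 15703190. It held 26 tags in gl2_dSTART, 52 in gl2_Amo, 37 in gl2_E375G R392M, 35 in GL2 and 33 in gl2-5. Here the null mutant was within the range of the fusions, although its library was the smallest. AT3G43990 was hit by gl2_dSTART, gl2_Amo and GL2 with summits from 15784650 to 15784655, and by gl2-5 at another place, 15783551. RNA genes held 1.07% of the gl2_dSTART summits (against 1.58% of all its nuclear peaks), 0% of those of gl2_dZip (against 1.51%), 0.447% of those of gl2_Amo (against 0.736%), 1.54% of those of gl2_E375G R392M (against 0.625%), 1.27% of those of GL2 (against 0.799%) and 0% of those of gl2-5 (against 1.32%). AT3G00670 had 3 gl2_dSTART summits, 1 of gl2_Amo and 1 of gl2_E375G R392M, and 4 others were hit in 1 list each.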

How the data were processed

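The 15 ChIP libraries and 6 inputs entered through the 6 peak lists that the authors deposited, with 1 list per genotype. The file headers name MACS 1.4.2, run on merged ChIP alignments against 1 input each, at a p cutoff of 1e-05, with tags of 51 bp and at most 1 tag per position, which removed between 95.3% and 99.2% of the ChIP tags. The fitted fragment size of 52 to 58 bp was close to the tags' own length, while the libraries were of 320 bp per the labels. Bowtie2 2.2.3 and TAIR10 come from the submitters' processing notes. In the deposited lists the tag count of a peak is unscaled, the score is a caller's p-value on a minus log10 scale (times 10), fold enrichment is a ratio, and the FDR is a percent. Length and summit are in bp, per the file headers.

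Overlaps, merged regions, bins and shares were computed in Python 3.11.15 (pandas 2.3.3, SciPy 1.17.1) and checked on simulated peaks. Gene names and classes came from a RefSeq table on TAIR10.1, used for gene spans without strand or exons, its positions being taken to match TAIR10. Words for transposon families could not be read from it. No genome sequence was used here. No test was made, since replicates were merged before calling. The interval, the lists and the naming rules were chosen with earlier results of these data known. Named were the 5 highest-scoring peaks of each list, regions in all 6 lists or in the 5 fusions without gl2-5 (at most 10 each), genes or pseudogenes hit in at least 3 lists, and RNA genes hit in at least 2. Alternatives were a score of 100 or more, an FDR of 5% or less, lists of equal length, peaks over 1 kb left out, other overlap rules, other gene rules and bins shifted by 50 kb.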

Additional observations from a re-analysis of the deposited data

How the results depend on the processing

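Of 227 alternative values, 142 stayed within the counting interval of the value reported, or within 1.5 times a count or median, and 85 moved. In the central 300 kb gl2-5 had 0 peaks, and the alternatives tried there only left peaks out. None could therefore turn its order with a fusion. At an FDR of 5% or less gl2_dZip also had 0 peaks there. No paired analysis was possible because the replicates of each genotype were merged before peaks were called, and for the same reason no replicate could be left out. Depth differed between lists, and many peaks rest on few tags. The causes of the moves were not tested. An overlap of any part of a peak with the interval, any overlap with a gene span and bins shifted by 50 kb moved no value. The place of the fullest bin was not part of this comparison. For gl2-5, the first of the fullest bins started at 14250001 with shifted bins and at 12600001 with a score of 100 or more.

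With a score of 100 or more, the share of nuclear peaks in the interval was 23.5% in gl2_dZip, 19.2% in gl2_Amo, 6.61% in gl2_E375G R392M and 3.82% in gl2-5. The share overlapping gl2-5 was 5.98% in gl2_dSTART and 23.5% in gl2_E375G R392M. The share overlapping GL2 was 19.7% in gl2_dSTART, 10.9% in gl2_dZip and 50% in gl2_E375G R392M, and the share of GL2 peaks overlapping a form was 78.6% with gl2_dSTART, 25.0% with gl2_dZip, 92.9% with gl2_Amo and 60.7% with gl2_E375G R392M. Regions in all 6 lists numbered 3, those in the 5 fusions without gl2-5 numbered 2 and those in 3 or more lists 52. Pseudogene shares were 5.98% in gl2_dSTART, 7.81% in gl2_dZip, 3.56% in gl2_Amo and 16.7% in gl2-5, and the protein-coding share in gl2_dZip was 0%. Median length was 308 bp in gl2_dSTART, 692 in gl2_dZip, 537 in gl2_Amo and 112 in gl2_E375G R392M, and median tags were 26.0 in gl2_dSTART, 174 in gl2_dZip, 71.0 in gl2_Amo and 38.0 in GL2. The fullest bin held 36 peaks in gl2_dSTART, 12 in gl2_dZip, 5 in gl2_E375G R392M and 7 in GL2.

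With lists of equal length, the share in the interval was 22.8% in gl2_dZip, 25.6% in gl2_Amo and 6.75% in gl2_E375G R392M. The share overlapping gl2-5 was 9.43% in gl2_dSTART, 6.32% in gl2_Amo and 30.4% in gl2_E375G R392M, and that overlapping GL2 was 24.5% in gl2_dSTART, 19.5% in gl2_Amo and 45.7% in gl2_E375G R392M. Of GL2 peaks, 50% overlapped gl2_dSTART, 36.0% gl2_dZip and 64.0% gl2_Amo. There was 1 region in the 5 fusions without gl2-5 and 72 in 3 or more lists. Pseudogene shares were 6.60% in gl2_dSTART, 12.3% in gl2_dZip and 1.15% in gl2_Amo, and the protein-coding share in gl2_Amo was 2.30%. Median length was 323 bp in gl2_dSTART and 624 in gl2_Amo, and median tags were 28.0 in gl2_dSTART, 115 in gl2_dZip and 81.0 in gl2_Amo.

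At an FDR of 5% or less, the share in the interval was 0% in gl2_dZip and 7.23% in gl2_E375G R392M, and the share overlapping gl2-5 was 23.8% in gl2_E375G R392M and 38.7% in GL2, with no value in gl2_dZip, which had no peak left. Without peaks over 1 kb, 29.9% of GL2 peaks overlapped gl2_dZip and 57.1% gl2_Amo, 2 regions were in the 5 fusions without gl2-5, and the fullest gl2_dZip bin held 32 peaks. With a reciprocal overlap of 50%, 7.63% of gl2_dZip and 7.16% of gl2_Amo peaks overlapped GL2, and 22.8% of GL2 peaks overlapped gl2_dZip and 40.5% gl2_Amo. Within 500 bp, the share near GL2 was 22.1% in gl2_dSTART, 22.0% in gl2_dZip and 19.9% in gl2_Amo, and 56 regions were in 3 or more lists.

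Alternatives chosen after seeing the data concerned the central 300 kb and the peak over rRNA genes. The central count was 68 in gl2_dSTART, 31 in gl2_dZip, 10 in gl2_E375G R392M and 10 in GL2 with a score of 100 or more. With lists of equal length it was 62 in gl2_dSTART, 125 in gl2_Amo, 16 in gl2_E375G R392M and 15 in GL2. At an FDR of 5% or less it was 0 in gl2_dZip, 26 in gl2_E375G R392M and 10 in GL2, and without peaks over 1 kb it was 69 in gl2_dZip. Without the rRNA peak, the interval held 9.02% of the tags in GL2 peaks.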
